A study of Drosophila melanogaster with 6 samples.

Results

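Cmi, also called Lpt, was found by chromatin immunoprecipitation and sequencing (ChIP-seq) at 659 autosomal regions in both embryos and S2 cells where no peak was called in wandering larvae or white prepupae. These regions were chosen from 4 peak lists. Peaks in contact with each other, down to a shared border, were joined into merged regions, and a region was kept when it lay on chromosome arm 2L, 2R, 3L or 3R, held at least 1 embryonic and 1 S2 peak, and held no larval or prepupal peak. The 659 regions made up 4.05% of the 16276 merged regions on these arms, which in turn were part of 19648 merged regions on all sequences. The same combination of lists occurred in 68 further regions on other sequences, 45 of them on X, which were left out by the choice of arms. The choice used the peak calls themselves, so the presence of embryonic and S2 peaks and the lack of later ones is a description and not a result.

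Cmi is a subunit of the Drosophila MLR complex, a COMPASS-like assembly related to the mammalian KMT2C and KMT2D complexes. In the fly, Cmi and the methyltransferase Trr are separate proteins that together correspond to a single mammalian KMT2C or KMT2D protein. Cmi carries PHD finger domains, which in related proteins read histone tails. The complex acts mainly at enhancers, where Trr places a single methyl group on lysine 4 of histone H3, and it is a coactivator of the ecdysone receptor. Enhancers are typically active in some cell types and stages and not in others.

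S2 cells are a Drosophila cell line established from late embryos, with properties of blood cells, and they stand here for 1 line grown in culture. White prepupae and larvae of the third instar, at the wandering stage, were collected whole, so each animal list mixes all tissues. The number of animals is not stated. The labels give the genotype Y cn bw sp for all 6 samples, the cell line included, and name an antiserum against Cmi for the 3 ChIP samples and no antibody for the 3 inputs. The embryo list, which its name marks E0-8 with no unit (fly embryo collections are usually named by hours after egg laying), rests on an older published data set that the submitters processed alongside, and no sample of the series belongs to it. A signal that is confined to few cells of a whole animal and one that is weak in many cells cannot be told apart in these lists.

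The S2, larva and prepupa lists rested on 1 ChIP library each, and the libraries behind the embryo list are not stated, so no spread between animals or cultures could be measured and no test was made. On the 4 arms there were 13156 embryonic, 5228 larval, 7555 prepupal and 5051 S2 peaks. The narrowest embryonic peak was 280 bp, the narrowest larval peak 320 bp, the narrowest prepupal peak 220 bp and the narrowest S2 peak 340 bp. The lists give no heights and no read counts, so depth is unknown, and the lack of a call in larvae or prepupae is not evidence that Cmi was missing there. How far depth or the calling threshold of the later lists set the choice of the 659 regions was not tested. Intervals in brackets are exact binomial 95% intervals for shares and 95% order-statistic intervals for medians. They cover the number of regions only, and neighbouring regions are not independent. Coordinates are on genome build dm3, counted from 1, and regions were not assigned to genes.

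The 659 regions were mostly simple pairs of modest peaks. A single embryonic peak met a single S2 peak in 553 of them (83.9%, 80.9 to 86.6). In 53 regions several embryonic peaks met 1 S2 peak, in 37 regions 1 embryonic peak met several S2 peaks, and in 16 regions both sources had more than 1. In total the regions held 735 embryonic peaks, 5.59% (5.20 to 5.99) of that list on the 4 arms, and 717 S2 peaks, 14.2% (13.2 to 15.2) of the S2 list. The merged regions spanned 362 to 7625 bp, with a median of 981 bp (940 to 1043), and covered 793.5 kb together.

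The peaks of these regions were narrower than those of regions that all 4 lists shared. Embryonic peaks had a median width of 578 bp (544 to 614) in the 659 regions, against 1040.5 bp (970 to 1107) in the 1351 regions with a peak in all 4 lists and 430 bp (424 to 437) in the 7443 regions with embryonic peaks alone. S2 peaks had a median of 551 bp (531 to 580), against 1185 bp (1130 to 1253) in the regions of all 4 lists and 543 bp (520 to 560) in the 1417 regions of S2 cells alone. In embryos, these peaks therefore lay between the unshared peaks and those of the 4-list regions. In S2 cells their interval overlapped that of the unshared peaks. In the 335 regions with embryonic, larval and S2 peaks, the medians were 1097 bp (975 to 1212) in embryos and 653 bp (606 to 681) in S2 cells. In the 93 regions with embryonic, prepupal and S2 peaks, they were 596 bp (526 to 704) and 1012 bp (775 to 1286). The embryonic interval of these 93 regions overlapped that of the set, so embryonic peaks of this width also occurred beside a prepupal peak. Within its own list the median embryonic peak of the set stood at percentile 53.7 of width and the median S2 peak at percentile 35.5, where a higher percentile means a wider peak.

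Among regions with a peak in both embryos and S2 cells, the lack of a later peak went with narrow peaks. Of the 2438 such regions on the 4 arms, 659 (27.0%, 25.3 to 28.8) had neither a larval nor a prepupal peak. With the 2438 regions divided into 4 classes by their widest embryonic peak, this share was 56.4% (52.3 to 60.3) in the narrowest class (280 to 660 bp), 33.9% (30.2 to 37.9) in the second, 13.3% (10.7 to 16.3) in the third and 4.43% (2.94 to 6.37) in the widest (2054 bp or more). By the widest S2 peak the same shares were 53.5% (49.5 to 57.5), 32.7% (29.0 to 36.6), 16.9% (14.0 to 20.2) and 4.92% (3.34 to 6.95). The intervals of neighbouring classes did not overlap in either list. A wide peak has more sequence in which to meet a later peak. With every peak set to 500 bp around its midpoint, an alternative chosen after the data had been seen, the share was 56.9% in the narrowest and 10.8% in the widest embryonic class, and 56.1% and 14.1% in the S2 classes. Later peaks can also join several peaks into 1 region, which raises the width of the widest. For this reason single peaks in direct contact with the other source were classed by their own width, also after the data had been seen. Of such embryonic peaks, 55.8% (52.4 to 59.2) of the narrowest class and 5.51% (4.08 to 7.26) of the widest touched no later peak. Of such S2 peaks, the shares were 51.8% (48.2 to 55.4) and 5.51% (4.001 to 7.38).

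**Figure D1:**
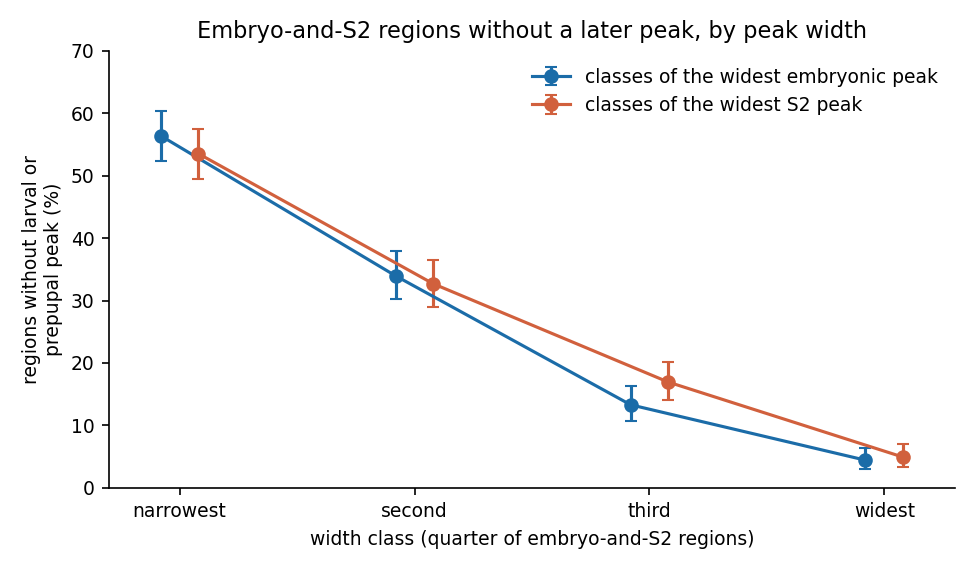
Share of the 2438 embryo-and-S2 regions that had no larval or prepupal peak (vertical axis, percent), in 4 classes from narrow to wide, by the widest embryonic peak (blue) or the widest S2 peak (orange). Points are shares and bars exact binomial 95% intervals. The share falls in both series, from 56.4% to 4.43% by embryonic width and from 53.5% to 4.92% by S2 width.

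The 2 widths were also combined, in classes cut from each whole list and not from the embryo-and-S2 regions. The size of this contrast therefore cannot be set against that of the single widths. Where both the widest embryonic and the widest S2 peak belonged to the narrower 50% of their lists, 186 of 243 regions (76.5%, 70.7 to 81.7) had no later peak. Where both belonged to the widest 25% of their lists, 25 of 671 regions (3.73%, 2.43 to 5.45) had none. These 25 regions, 3.79% of the 659, are wide Cmi regions of embryos and S2 cells without any called counterpart at the onset of metamorphosis.

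Within the set, the width of the embryonic peak said little about the width of its S2 partner. Over the 553 regions of 1 peak each, the log2 widths had a Pearson correlation of 0.07 and a Spearman correlation of 0.09, given as a description across regions that share the same 2 libraries. Membership of the set itself went with both widths, and few regions with 2 wide peaks are in it. No correlation was computed over all embryo-and-S2 regions, so these values cannot be read as a trait of embryonic and S2 peak pairs in general. The embryonic peak was wider in 276 regions, the S2 peak in 275, and 2 had equal widths. The median ratio of embryonic to S2 width was 1 (0.91 to 1.08), and single ratios ran from 0.07 to 7.09. In 84 of the 659 regions (12.7%, 10.3 to 15.5) the embryonic peak belonged to the widest 25% of its list and the S2 peak to the narrower 50%. The opposite held in 27 regions (4.10%, 2.72 to 5.91). These classes use each list's own widths, with a median of 537 bp in the whole embryonic list and 711 bp in the whole S2 list. A peak of the same width in bp therefore ranks higher in the embryonic list, and the part of this in the 2 counts was not tested.

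**Figure D2:**
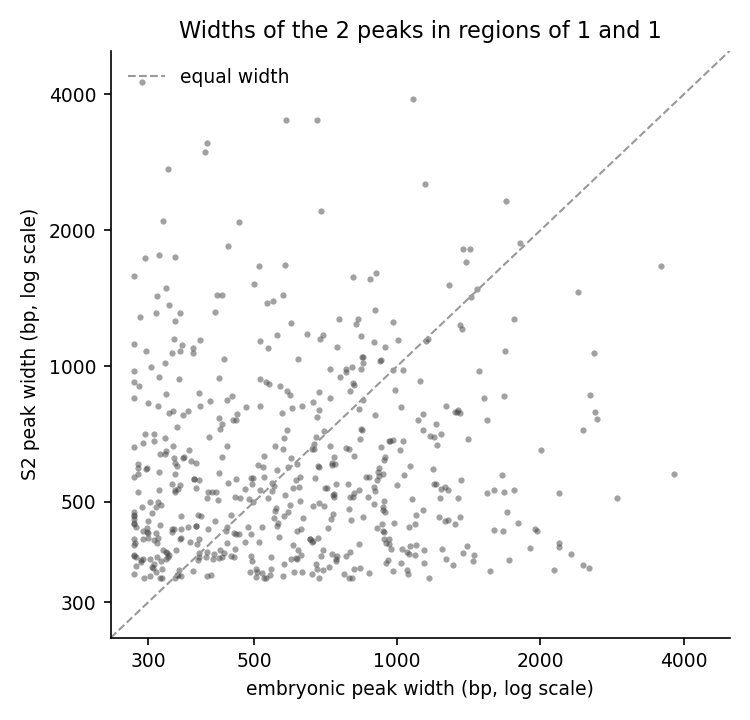
Width of the embryonic peak (horizontal, bp) and the S2 peak (vertical, bp), both on log axes, for the 553 regions with 1 peak from each source. Points are regions and the dashed line marks equal width. The points spread on both sides of the line, 276 with the wider peak in embryos and 275 with the wider peak in S2 cells.

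Although a shared border was enough for a region to enter the set, the shorter of its embryonic and S2 sides was usually covered in large part by the other. The median region had 88.7% (85.9 to 91.5) of the shorter side covered, and 555 of 659 regions (84.2%, 81.2 to 86.9) had at least 50% covered. The whole of the shorter side was covered in 234 regions (35.5%, 31.9 to 39.3). The shared stretch had a median length of 394 bp (374 to 413) and made up a median of 42.9% (41.0 to 45.8) of the merged region. In the 553 regions of 1 peak each, the midpoints of both peaks lay a median of 193 bp apart (179.5 to 214.5), and in 309 (55.9%, 51.6 to 60.1) each midpoint fell inside the other peak. The embryonic peak lay inside the S2 peak in 93 of these regions, the S2 peak inside the embryonic one in 122, and in 338 (61.1%, 56.9 to 65.2) each reached beyond the other.

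At the other extreme, contact was slight in a small part of the set. In 23 regions (3.49%, 2.23 to 5.19) the embryonic and S2 peaks shared at most 50 bp, and in 2 of these they only touched. Coverage of the shorter side was higher in the regions with later peaks, with a median of 97.3% (96.1 to 98.3) in the regions of all 4 lists and 99.8% (96.7 to 100) in those with embryonic, larval and S2 peaks. Wider peaks leave less room for partial coverage, and the part of width in this difference was not tested.

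The widest region of the set lay on 2R from 936647 to 944271, towards the centromere, since coordinates on 2R and 3R count away from it and those on 2L and 3L count towards it. It spanned 7625 bp and was built of 2 broad embryonic peaks of 4022 and 3548 bp with 5 separate S2 peaks of 470 to 1038 bp along them, 1 of which ran across the gap between the embryonic peaks. The nearest larval peak was 33.7 kb away and the nearest prepupal peak 69.8 kb. The region thus was nearly continuous in embryos and broken up in S2 cells.

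The next was on 3L from 24456714 to 24464017, close to the centromeric end of the listed sequence, where the last peak of any list ended at 24530693. Here S2 cells had 1 peak over the whole 7304 bp, rank 70 by width of all S2 peaks, and embryos had peaks of 1641 and 4026 bp inside it. This region had the highest mean width percentile of the set, at 98.6 in embryos and 98.9 in S2 cells. The nearest later peaks were 66.3 kb (larva) and 93.7 kb (prepupa) away, so that it was both broad in both sources and far from any later peak.

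Several of the other wide regions were wide in 1 source. On 3R from 22694066 to 22699784, a 5719 bp S2 peak covered embryonic peaks of 394 and 386 bp. On 2R from 14514682 to 14519665, a 4984 bp S2 peak covered embryonic peaks of 547 and 458 bp that lay near its ends. A 4255 bp S2 peak on 3R from 26571634 to 26575888 held a single embryonic peak of 291 bp, and a 4000 bp S2 peak on 3L from 3454333 to 3458332 held embryonic peaks of 280 and 286 bp. The embryonic peaks of 280 and 286 bp were at or near the lower limit of width of their list. The opposite pattern was found on 3L from 16572846 to 16577044, where embryonic peaks of 578 and 3567 bp met 3 S2 peaks of 438 to 1119 bp.

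Other regions were broad in both sources, among them the remaining 4 with the best mean width percentile. On 2R from 1595798 to 1600128, embryonic peaks of 2232 and 1229 bp overlapped an S2 peak of 3070 bp. On 3L from 121006 to 125740, embryonic peaks of 612 and 3126 bp overlapped S2 peaks of 2182 and 476 bp. A 3590 bp embryonic peak on 2L from 1460484 to 1464073 contained an S2 peak of 1671 bp, with the nearest larval peak 33.3 kb and the nearest prepupal peak 18.2 kb away. On 3R from 5937793 to 5940113, a 2321 bp S2 peak contained an embryonic peak of 1692 bp, with a prepupal peak 568 bp away. On 3R from 10958214 to 10962113, a 3900 bp S2 peak held an embryonic peak of 1080 bp, at width percentiles of 77.2 (embryo) and 94.7 (S2), with a larval peak 407 bp and a prepupal peak 443 bp outside the region. Broad sharing between embryo and S2 thus occurred both far from and close to later peaks.

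**Figure D3:**
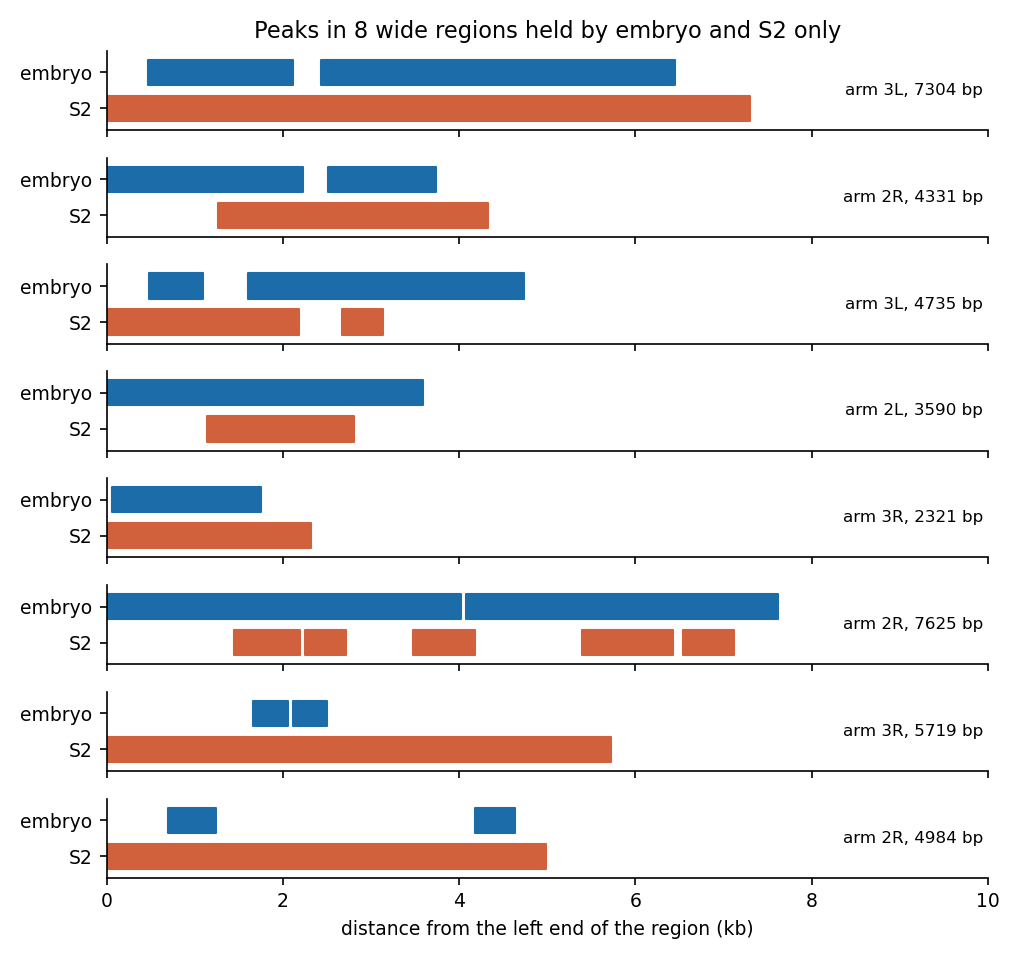
Embryonic peaks (blue, upper row of each panel) and S2 peaks (orange, lower row) in 8 regions, drawn to scale by distance from the left end of the region (kb). The first 5 panels are the regions with the best mean width percentile, the last 3 the other regions among the 4 widest. The 7625 bp region on 2R has 2 long embryonic and 5 short S2 peaks, and the 5719 bp region on 3R has 1 long S2 and 2 short embryonic peaks.

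The set was unevenly divided among the arms. Arm 2R held 220 regions (33.4%, 29.8 to 37.1) and 3R held 219 (33.2%, 29.6 to 37.0), whereas 3L held 123 (18.7%, 15.8 to 21.9) and 2L held 97 (14.7%, 12.1 to 17.7). Up to the last peak of each arm, 2R makes up 21.9% of the sequence of the 4 arms, 3R 28.9%, 3L 25.4% and 2L 23.8%. The density was 10.4 regions per Mb on 2R, against 7.85 on 3R, 5.01 on 3L and 4.22 on 2L.

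For each region on 2R there were 0.44 regions on 2L. This ratio was 0.60 in the regions of all 4 lists, 0.63 in those of S2 cells alone and 1.15 in those of embryos alone. The share on 2R was 33.4% (29.8 to 37.1) in the set, 28.7% (26.3 to 31.2) in the regions of all 4 lists, 31.1% (28.6 to 33.5) in S2 cells alone and 22.0% (21.1 to 23.0) in embryos alone. The low weight of 2L was found in every one of the 4 classes of regions with both embryonic and S2 peaks, with ratios of 0.44 to 0.60, so it went with the presence of an S2 peak. Among the embryo-and-S2 regions of an arm, the part without a later peak was 30.3% (27.0 to 33.8) on 2R, 27.7% (24.6 to 31.0) on 3R, 25.2% (20.9 to 29.8) on 2L and 22.9% (19.4 to 26.6) on 3L. Copy number of the arms in S2 cells was not measured here, and its part in this division was not tested.

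**Figure D4:**
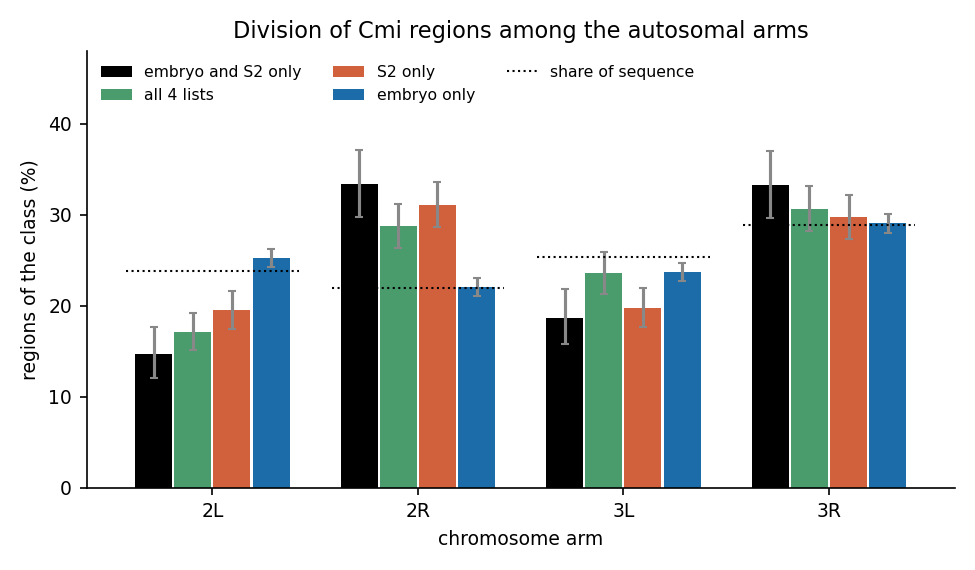
Percent of the regions of each class that lay on each of the 4 arms, for the embryo-and-S2-only set (black), regions of all 4 lists (green), S2 only (orange) and embryo only (blue). Bars are shares, lines exact binomial 95% intervals, and dotted lines the share of sequence up to the last peak of the arm. The set has its highest share on 2R (33.4%) and its lowest on 2L (14.7%).

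The regions were unevenly spread, and the densest window lay in the centromere-proximal part of 2R. Of the 969 windows of 100 kb on the 4 arms, 328 held at least 1 region and 77 held 3 or more, and these 77 windows contained 340 of the 659 regions (51.6%). The same windows, chosen by the set itself, held 13.1% of all merged regions, 18.9% of those of all 4 lists, 27.5% of those of S2 cells alone and 9.35% of those of embryos alone. The densest window, on 2R from 1600001 to 1700000, held 12 regions, with 27 S2 peaks and 19 embryonic peaks against 2 larval and 4 prepupal peaks. The window before it, from 1500001 to 1600000, held 7 regions, with 19 embryonic and 11 S2 peaks against 2 larval and 3 prepupal peaks. Counted per Mb, 21 of the 34 embryo-and-S2 regions between 1 and 2 Mb of 2R (61.8%, 43.6 to 77.8) lacked a later peak. This was the highest share of any 1 Mb bin with at least 20 such regions, and that bin was singled out after its value had been seen.

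Other dense windows were not poor in later peaks. Windows with 8 regions lay on 2R from 2500001 to 2600000, from 3300001 to 3400000 and from 19900001 to 20000000, and they held 8 to 11 larval and 9 prepupal peaks each beside 30 to 38 embryonic and 19 to 28 S2 peaks. In all, 6 windows had 7 regions each, the one before the densest window among them. Another was on 2L from 1100001 to 1200000, where 20 embryonic and 12 S2 peaks stood against 8 larval and 11 prepupal peaks. Regions of the set thus shared these windows with larval and prepupal peaks, whose order along the sequence and further lists were not examined.

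Neighbouring regions were of the same kind in 168 of 659 cases (25.5%, 22.2 to 29.0), counting a region whose next merged region on either side also had embryonic and S2 peaks only. The set made up 4.05% of all merged regions on the 4 arms. Such shares of all regions refer to a single region, whereas a neighbour was sought on either side, so the shares with a neighbour are not on the same scale. Counted once per side of each region of the set, 188 of the 1318 flanking positions (14.3%, 12.4 to 16.3) held a region of the set. A region between regions of the set counts for each of them, and the interval takes the positions as independent. Regions of all 4 lists, 8.30% of the total, had a neighbour of their own kind in 20.9% (18.7 to 23.1) of cases, S2-only regions (8.71%) in 54.8% (52.1 to 57.4) and embryo-only regions (45.7%) in 82.5% (81.6 to 83.4). The 168 regions formed 59 pairs, 10 runs of 3 and 5 runs of 4. Among the runs of 4, the one with the longest span was on 2L from 1169686 to 1178148 (8.46 kb). Its second region held embryonic peaks of up to 1378 bp and an S2 peak of 2329 bp, and the other 3 had peaks of 439 to 535 bp. The next, on 2R from 1621478 to 1629677 (8.20 kb), included a region in which an embryonic peak of 1811 bp and an S2 peak of 1879 bp shared 1794 bp. The others were on 2R from 11898212 to 11904790, on 2R from 14308498 to 14314022 and on 3L from 22712991 to 22718358. In the last of these, S2 peaks measured 367 to 814 bp and lay 2.05 to 3.75 kb from the nearest larval peak.

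The merged regions directly beside the set were often S2 regions. The 1318 flanking regions were counted once per side of each region of the set. A region between regions of the set thus counts more than once, which the intervals do not allow for. Of the 1318, 722 (54.8%, 52.0 to 57.5) held an S2 peak, against 26.3% of all merged regions on the 4 arms. An embryonic peak was present in 74.9% (72.5 to 77.2) of the flanking regions, against 72.2% of all. A larval or prepupal peak was present in 30.9% (28.4 to 33.5), against 41.5% of all. Of the 1318, 188 (14.3%, 12.4 to 16.3) belonged to the set itself, and by the rule these held embryonic and S2 peaks and no later one. They raise the S2 and embryonic shares and lower that of later peaks, and the shares without them were not computed. The small embryonic difference therefore cannot be read as an excess around the set. By class, flanking regions with S2 peaks alone accounted for 19.1% (17.0 to 21.3), against 8.71% of all regions. Embryo-only regions accounted for 35.7% (33.1 to 38.4), against 45.7%, and prepupa-only regions for 2.05% (1.35 to 2.97), against 10.2%.

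Within 10 kb on each side of a region's midpoint, and leaving out the peaks of the region itself, the set had a mean of 5.28 embryonic, 1.76 larval, 2.06 prepupal and 3.67 S2 peaks. Regions of all 4 lists had 3.84 embryonic, 1.65 larval, 2.35 prepupal and 2.14 S2 peaks around them. Embryo-only regions had 5.06 embryonic and 1.10 S2 peaks, and S2-only regions 3.42 embryonic and 3.42 S2 peaks. The set thus lay in surroundings with about as many embryonic peaks as the embryo-only regions had and about as many S2 peaks as the S2-only regions had. Wider peaks take up more of the 10 kb on each side of the 4-list regions, and the part of this in the lower counts there was not tested.

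Later peaks were often close by without contact. The nearest larval or prepupal peak was within 1 kb of 169 regions (25.6%, 22.4 to 29.2) and within 5 kb of 462 (70.1%, 66.5 to 73.6). The share within 1 kb was 18.8% (17.9 to 19.7) for embryo-only regions and 23.9% (21.7 to 26.2) for S2-only regions, the latter with an interval that overlapped that of the set. The share within 5 kb was 58.2% (57.1 to 59.3) for embryo-only regions and 63.0% (60.4 to 65.5) for S2-only regions. The median gap was 2742 bp (2430 to 3074) in the set, against 3767 bp (3624 to 3898) in embryo-only and 2999 bp (2768 to 3340) in S2-only regions.

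The nearest later peak was larval for 437 regions and prepupal for 222, with 5228 larval and 7555 prepupal peaks on the 4 arms. Larval peaks were wider, with a median of 792 bp in the whole list against 491.5 bp for prepupal peaks, and covered more of the 4 arms, 6.08 Mb against 5.64 Mb. How far the width and number of later peaks set these gaps was not tested. The median gap was 3275 bp (2813 to 3789) to a larval peak and 4764 bp (4070 to 5096) to a prepupal peak. For embryo-only regions the order was the opposite, with 5843 bp (5608 to 6104) to a larval and 5514 bp (5307 to 5741) to a prepupal peak. For S2-only regions the gaps were 4004 bp (3681 to 4438) and 4441 bp (3937 to 4931), with intervals that overlapped. The regions with 1 further list showed the same side, since 335 regions had embryonic, larval and S2 peaks and 93 had embryonic, prepupal and S2 peaks.

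**Figure D5:**
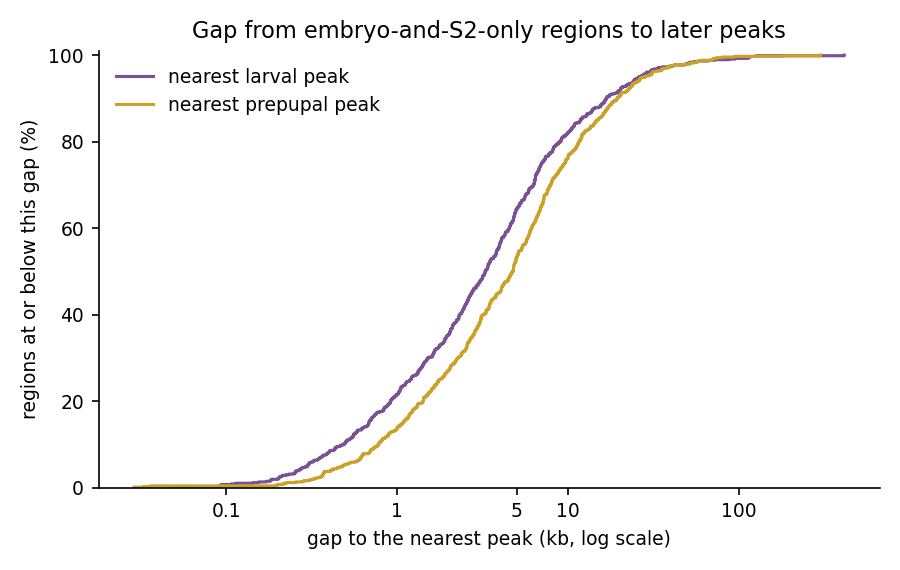
Cumulative percent of the 659 regions (vertical) whose gap to the nearest larval peak (purple) or prepupal peak (yellow) was at most the value on the horizontal axis (kb, log scale). Each line is a running count over regions. The larval line lies to the left for most of its length, with medians of 3275 bp (larval) and 4764 bp (prepupal).

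The border of the set is described here by the smallest gaps and contacts, with no other class for comparison. The regions nearest to a later peak lay on 2R from 8914071 to 8914531, 29 bp from a prepupal peak, on 2R from 12098782 to 12099549, 33 bp from a prepupal peak, and on 3L from 771880 to 772674, 36 bp from a prepupal peak. The next were on 3L from 4240875 to 4242236, 46 bp from a larval peak, and on 2R from 9840150 to 9840925, 67 bp from a larval peak. In total 16 regions had a gap of at most 200 bp. Just outside the set, the smallest contact of a later peak with the embryonic and S2 peaks of a region was 58 bp (3L from 3425094 to 3426354, prepupal peak) and 66 bp (3R from 5421180 to 5424847, prepupal peak). Contacts of 122 bp (2R from 10094896 to 10096405, prepupal), 124 bp (3R from 4770117 to 4771113, larval) and 169 bp (3L from 1726344 to 1727478, prepupal) followed. Of the 428 regions with 1 further list, 6 had contacts of at most 200 bp.

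At the far end, 8 regions lay more than 50 kb from any larval or prepupal peak. The most distant was on 2R from 71065 to 71675, at the centromeric end, with 411.1 kb to the nearest larval and 299.3 kb to the nearest prepupal peak. Its embryonic peak of 286 bp and S2 peak of 596 bp stood at percentiles 5.26 and 40.1 of width in their lists. Neighbouring regions of this kind were found on 3R from 8328198 to 8328944, from 8331356 to 8332171 and from 8334496 to 8335326. These 3 had embryonic peaks of 496, 601 and 599 bp and S2 peaks of 548, 809 and 626 bp, with later peaks 51.1 to 57.6 kb away. The 2 regions on 3L at 24432343 to 24435461 and 24456714 to 24464017 were the only embryo-and-S2 regions beyond 24 Mb of that arm, and neither had a later peak. The others were on 2R from 17860759 to 17861170 and on 3R from 24079367 to 24079792, both narrow, with embryonic peaks of 312 bp in each and S2 peaks of 350 and 426 bp.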

How the data were processed

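Per the labels' protocols, formaldehyde-fixed chromatin was immunoprecipitated with Cmi antiserum, and the DNA was made into Illumina libraries. The authors deposited each peak list as start and end positions, with no score or other value per peak. The submitters' processing notes name BWA, MACS2 and dm3. Their versions, thresholds, handling of inputs and pooling are not stated. The inputs were not analysed here.

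Peaks of 4 lists that overlapped or touched were merged and classed by the lists present. The members, comparisons and regions to name were chosen with earlier results of these data known. Named were the 10 widest regions, the 5 best by mean width percentile, the 5 longest runs, the 5 densest windows and the 5 nearest the border on each side. The 8 regions beyond 50 kb and the 1 Mb bin were chosen after their values were seen. Merging, distances and intervals were checked on simulated lists. Python 3.11.15, numpy 2.4.6, pandas 2.3.3, scipy 1.17.1 and matplotlib 3.10.9 were used.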

Additional observations from a re-analysis of the deposited data

How the results depend on the processing

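No paired analysis was possible because the labels give 1 ChIP library each for S2 cells, larvae and prepupae and none for embryos, and no test was made. Of 46 values under 6 alternatives, 23 stayed within 1.5 times (count of regions) or within the reported interval (shares and medians). The share on 2R did so under all 6, at 31.2 to 34.6%. With only peaks wider than their list's median, there were 321 regions, 23.9% of embryo-and-S2 regions, with medians of 1086 bp (embryo) and 1135 bp (S2), 95.7% of the shorter side covered, 47.7% within 5 kb of a later peak and 19.9% next to another such region. With the 6049 widest peaks of every list these were 349 regions, 19.3%, 1052 bp, 608 bp, 98.2%, 61.9% and 20.6%. Fewer peaks enter under both by construction. With every peak set to 500 bp, for which widths have no meaning, 33.4% of embryo-and-S2 regions lacked a later peak, 64.0% of the shorter side was covered, 74.5% lay within 5 kb and 19.8% were neighbours. Where no later peak was allowed within 1 kb, 490 of the 659 regions were kept, which was 20.1% of embryo-and-S2 regions. Of these 490, 59.8% lay within 5 kb of a later peak. When peaks were joined only with 50% or more of the shorter one covered, the S2 median was 586 bp, the coverage 98.6% and the neighbour share 21.5%. By construction, the 1 kb limit lowers the share of embryo-and-S2 regions and the share within 5 kb. The 50% limit leaves out slight contacts by construction. The cause of the remaining shifts was not tested. Unknown depth limits every statement on peaks that were not called.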
